A study of Mus musculus with 6 samples.

Results

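The response of 10 genes of cellular defence against oxidants and metals was followed in the inflamed mouse colon: Slc7a11, Gclc, Gclm, Hmox1, Nqo1, Srxn1, Txnrd1 and Gpx2, which are known targets of the transcription factor NRF2, and the metallothioneins Mt1 and Mt2. They were chosen by name, as 10 of the 23462 genes that the array names, and every probe of theirs was taken: 12 probes, 2 each for Slc7a11 and Txnrd1 and 1 for each of the others. The colon samples were 3 from control mice and 3 from mice labelled Islr knockout, all male, with 1 array per sample; the Islr product is a leucine-rich protein made by stromal cells. By the sample source the mice of all 6 samples had drunk 3.5% dextran sulfate sodium, which injures the colonic epithelium, for 5 days and had recovered for 1 day, whereas another field of the same labels states that nothing was given. The strain, the age, the allele and the cells in which Islr was deleted are not given in the sources used here, and the design text speaks of flow separation of the tissue without naming a marker or gate.

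NRF2, encoded by Nfe2l2, is held in the cytoplasm and handed to degradation by KEAP1 until oxidants or electrophiles modify KEAP1; it then enters the nucleus, pairs with small Maf proteins and binds antioxidant response elements, sites that BACH1 can occupy as a repressor. Its targets import cystine, make glutathione, reduce thioredoxin, degrade haem and detoxify quinones. Metallothioneins are small cysteine-rich proteins that bind zinc and copper, and their genes are switched on by the zinc-sensing factor MTF1 at metal response elements. In the colon, Gpx2 belongs to the epithelium and Hmox1 is strongly expressed by macrophages that clear haem.

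Promoter sequences show which of the known motifs of these pathways lie close to the start of each gene. The 250 bases before the annotated start were taken from RefSeq (build GRCm38.p6) and were found for 8 of the 10 members, in 10 windows, 3 of them for Txnrd1; Hmox1 and Gclc had no entry. The motifs searched, on both strands, were the antioxidant response element core TGACNNNGC, the element of small Maf and NF-E2 family proteins TGANTCAGC, the metal response element core (TGCACNC or TGCGCNC) and the amino acid response element TGATGNAAN, which binds ATF4. The second of these overlaps the first where its free base is a C. The windows of 4 members are printed because they differ in the kind and number of these motifs, with each match in capitals: Slc7a11 (chr3:50443614-50443863, minus strand), Gclm (chr3:122245307-122245556, plus strand), Srxn1 (chr2:152105274-152105523, plus strand) and Mt2 (chr8:94172368-94172617, plus strand).
Slc7a11: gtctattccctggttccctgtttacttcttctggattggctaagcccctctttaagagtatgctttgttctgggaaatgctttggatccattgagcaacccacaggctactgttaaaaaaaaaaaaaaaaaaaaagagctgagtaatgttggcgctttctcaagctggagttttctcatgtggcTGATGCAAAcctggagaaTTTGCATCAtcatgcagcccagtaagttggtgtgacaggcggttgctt
Gclm: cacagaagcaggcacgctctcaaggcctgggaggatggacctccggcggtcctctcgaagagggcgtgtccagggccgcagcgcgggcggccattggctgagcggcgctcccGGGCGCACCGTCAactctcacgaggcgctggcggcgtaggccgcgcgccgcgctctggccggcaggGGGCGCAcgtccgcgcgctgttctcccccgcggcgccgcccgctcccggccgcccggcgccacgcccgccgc
Srxn1: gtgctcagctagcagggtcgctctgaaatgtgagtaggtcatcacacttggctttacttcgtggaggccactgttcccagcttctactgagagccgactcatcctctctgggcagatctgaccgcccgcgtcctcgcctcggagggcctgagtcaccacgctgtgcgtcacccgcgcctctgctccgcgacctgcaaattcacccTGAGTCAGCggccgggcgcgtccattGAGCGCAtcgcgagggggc
Mt2: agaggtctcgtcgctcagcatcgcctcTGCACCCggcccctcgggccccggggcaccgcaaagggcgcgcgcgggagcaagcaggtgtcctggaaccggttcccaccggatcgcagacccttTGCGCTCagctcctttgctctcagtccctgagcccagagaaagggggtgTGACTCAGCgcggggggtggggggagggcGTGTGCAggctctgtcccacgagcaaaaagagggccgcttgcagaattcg
The Slc7a11 window held 2 amino acid response elements in opposite orientation, at bases -66 to -58 and -48 to -40 from the start, and no match to the other motifs. At least 1 such element was present in 3.44% of all 32851 windows of this length, and more than 1 in 0.0396%. The Gclm window held an antioxidant response element core at -134 to -126, overlapped by a metal response element core, and a second metal response element core at -72 to -66. Srxn1 carried the small Maf element at -45 to -37, which 1.02% of windows held, and a metal response element core at -19 to -13. Mt2 carried 3 metal response element cores and, at -79 to -71, 1 site that matched both TGACNNNGC and TGANTCAGC. The antioxidant core was present in 10.2% of windows and the metal core in 21.4%, with over 1 metal core in 5.17%. Mt1 had 1 metal core at -23 to -17, Txnrd1 had 1 antioxidant core before 1 of its 3 starts, and these letters were not in the windows of Nqo1 and Gpx2. A match is a description of the sequence, not evidence of binding. Elements outside these 250 bases, farther upstream or past the annotated start, were not searched.

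**Figure D1:**
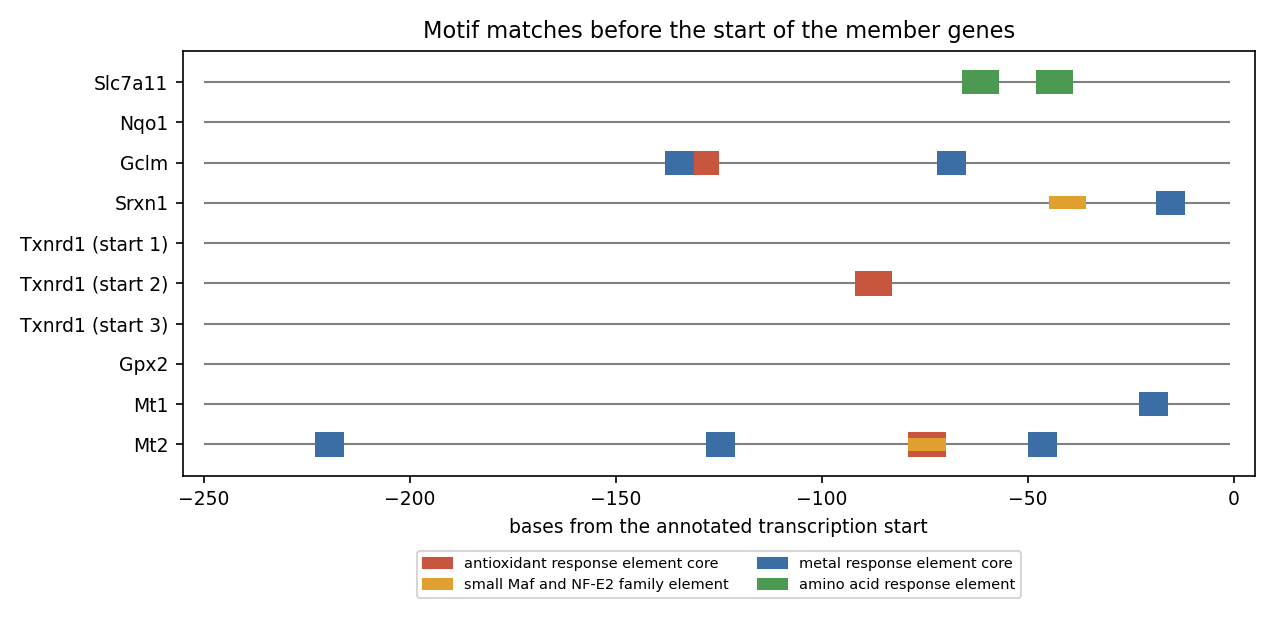
Motif matches (coloured boxes) in the 250 bases before each annotated start of the 8 members with a RefSeq window; the x axis gives bases from the start, and Txnrd1 has 3 starts. The 2 amino acid response elements of Slc7a11 lie between bases -66 and -40, and Mt2 holds the most metal response element cores, with 3.

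All levels below are log2 signals relative to the 75th percentile of the same array, so that 0 is that percentile; levels of different probes cannot be compared with each other. The 75th percentile itself was 6352.7 to 7110.5 intensity units in controls and 4910.5 to 5820.0 in knockouts, and no spot was saturated. Spots that the scanner software marked as outliers (3.26% to 15.99% of an array's spots, 12 of the 72 member spots) were treated as missing, and values with those spots kept are given where that left too few. Bright spots of replicate 1 of each group were marked most often. In the brightest decile of spots the share was 45.98% on control replicate 1 and 56.84% on knockout replicate 1. It was 25.61% on knockout replicate 2 and 10.69% to 11.48% on the remaining arrays. The probe for Islr was lower in the knockout by 2.44 on the log2 scale (limma, adjusted p = 0.0171) and the groups did not overlap; without knockout replicate 3 its adjusted p was 0.0580. The slide carried the controls in its first row and the knockouts in its second, and so row and genotype cannot be told apart. Markers of colon epithelium (13 of 13), macrophages (11 of 11), fibroblasts (8 of 8) and neutrophils (11 of 12, without Ngp) were well above background on at least 1 array. On each array 69.36% to 75.44% of all spots were, so this does not settle which cells gave the RNA. Fewer cells of a type and less RNA per cell cannot be told apart.

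Of the 10 member probes that could be tested, 2 passed the 5% false discovery rate of limma, where 3.97% of all 35351 tested probes did: Hmox1 and the dimmer Slc7a11 probe, both lower in the knockout. The Slc7a11 probe entered the test only through the controls, where it was high, so its call is no support for a share above the background; without it 1 of 9 probes passed (2.42% of all probes were called lower and 1.55% higher). By the brightest tested probe of each gene, 1 of 9 members passed, against 3.82% of the 16451 genes tested (2.47% lower, 1.35% higher). An unadjusted p under 0.05 was reached by 5 of the 10 member probes, where 26.8% of all probes reached it. With outlier spots kept, 3 of 12 member probes passed, beside 4.85% of all probes. The 5 and the 3 both include the dimmer Slc7a11 probe, so neither count is support for a share above the background. Of the 9 members, 6 were lower and 3 higher, with a median change of -0.16, beside 0.01 over all genes tested. Srxn1 was not among the 9, as only 1 of its control spots was usable. With outlier spots kept, the groups did not overlap at 7 of the 12 probes, 4 lower and 3 higher in the knockout, where 34.9% of all probes did not overlap (17.6% lower, 17.3% higher). The dimmer Slc7a11 probe, which entered only through the controls, is among the 4 lower and is no support here either. At the brightest probe of each member the groups did not overlap for 6 of 10, 3 lower and 3 higher. The same held for 38.3% of genes (18.8% lower, 19.5% higher). The count of members with a called probe was 0 without control replicate 2, control replicate 3 or knockout replicate 3 and 1 without knockout replicate 1 or 2, beside 2 with all arrays and 2 without control replicate 1. Only 7 members could be tested without control replicate 2 or 3 or knockout replicate 2 or 3. Over all probes these 4 fits called 71, 90, 1150 and 40.

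Slc7a11, the cystine importer that supplies glutathione synthesis, was lower in every knockout at both of its probes. At the brighter probe (A_52_P368057) the controls read -2.42, -1.69 and -2.21 and the knockouts -4.90, -3.27 and -4.19. The groups did not overlap, and knockout replicate 1 was the lowest of all arrays. The means were -2.11 ± 0.38 and -4.12 ± 0.82 (SD, n = 3 each), a change of -2.01 (SE 0.42, 95% interval -3.03 to -1.002), or 4.04-fold lower, which fell just short of the threshold in limma (adjusted p = 0.0527). At the dimmer probe (A_51_P129502) the controls read -4.47, -4.24 and -4.55 and the knockouts -6.48, -5.74 and -5.77, again without overlap. This probe was well above background on all control arrays and on no knockout array, so its fall is a bound: Slc7a11 was at least 2.12-fold higher in controls than the dimmest signal measurable on the knockout arrays (fitted change -1.58, SE 0.24, limma adjusted p = 0.0321). The brighter probe passed with outlier spots kept (adjusted p = 0.0490) or under quantile normalization (0.0399), and failed without the filter on dim probes (0.0803). With an array left out it passed only without knockout replicate 2 (0.0314). The dimmer probe lost its call without control replicate 2 (adjusted p = 0.0956), control replicate 3 (0.0847) or knockout replicate 3 (0.0788) and without the filter on dim probes (0.0502), and its change was -0.85 under normexp background correction.

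Slc3a2, the heavy chain that carries Slc7a11 to the membrane, gave no single direction. Its probe A_51_P472901 read 2.17, 2.17 and 2.16 in controls and 1.78, 1.79 and 1.65 in knockouts, lower on every knockout array but not called (-0.43, SE 0.14, adjusted p = 0.109). The brighter probe A_55_P2893745 read 3.88, 3.55 and 3.98 against 4.33, 3.95 and 3.83 and overlapped (0.23, SE 0.20, adjusted p = 0.497); its sign turned to -0.01 under quantile normalization, and leaving out control replicate 2 gave 0.11 and leaving out knockout replicate 1 gave 0.09.

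The next step, the joining of cysteine to glutamate, is made by the catalytic subunit Gclc and the modifier subunit Gclm, and neither passed the test. On the arrays with usable spots Gclc read 2.33 and 2.26 in controls and 1.44 and 1.63 in knockouts, a change of -0.76 (SE 0.20, 95% interval -1.30 to -0.22) that did not pass (limma, adjusted p = 0.104). The spots of control replicate 1 (1.63) and knockout replicate 1 (1.84) were outlier spots; with both kept the groups overlapped and the change was -0.44 (SE 0.24, adjusted p = 0.280). Gclm read 2.03, 1.97 and 2.01 in controls and 2.21, 1.92 and 2.07 in knockouts, and the knockout values surrounded those of the controls. Its change was 0.06 (SE 0.15, 95% interval -0.29 to 0.42, adjusted p = 0.812), and the sign turned under quantile normalization (-0.10) and without knockout replicate 1 (-0.01).

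Hmox1, haem oxygenase 1, which opens the haem ring and releases iron, carbon monoxide and biliverdin, was lower in the knockouts. The controls read 1.56 (an outlier spot), 0.72 and 0.15 and the knockouts -0.98, -0.90 and -1.32. The groups did not overlap, and the controls spread far more widely than the knockouts. Without the outlier spot the means were 0.44 ± 0.40 (SD, n = 2) and -1.07 ± 0.23 (SD, n = 3), a change of -1.50 (SE 0.25, 95% interval -2.13 to -0.87), or 2.83-fold lower, called in limma (adjusted p = 0.0441). With that spot kept the change was -1.88 and the call held (adjusted p = 0.0411). The call was lost without knockout replicate 1 (adjusted p = 0.0930), 2 (0.0609) or 3 (0.106) and without the filter on dim probes (0.0679), and the probe could not be tested without control replicate 2 or 3. Hmox2, the constitutive haem oxygenase, overlapped between the groups: its brighter probe (A_52_P477819) read 1.87 to 2.09 in controls and 1.84 to 2.14 in knockouts. That was a difference of -0.02 (SE 0.16, 95% interval -0.40 to 0.35, adjusted p = 0.943), whose sign turned to 0.01 under median centring. Between the groups, macrophage markers moved with Hmox1 and Slc7a11: 8 of the 9 markers tested were lower, 1 of them called. The summed level of all 11, with the array's 75th percentile as 1, was 24.6 to 37.6 in controls and 15.8 to 22.1 in knockouts. Control replicate 1 had the highest sum and Hmox1 of the controls but their lowest Slc7a11 at the brighter probe (-2.42). In the knockouts, Slc7a11 at that probe and the sum had the same order. The brightest tested macrophage markers were Csf1r (-0.37, limma adjusted p = 0.296) and C1qa (-0.75, adjusted p = 0.134). The 2 probes of Csf1r differed in sign, as its dimmer probe was higher by 0.24 (adjusted p = 0.339). Cd14 was the tested marker that was higher at its brightest probe (0.16, adjusted p = 0.662). Of the 10 neutrophil markers tested, 8 were lower by their brightest probe, 7 of them called, with sums of 34.3 to 37.7 against 27.8 to 29.1. The other 2, Csf3r (0.17) and Trem1 (0.18), were higher and not called. The dimmer Trem1 probe went the other way, with -1.91, -1.88 and -1.97 in controls and -7.56, -4.14 and -3.27 in knockouts. Its change was -3.07 with outlier spots kept (limma, adjusted p = 0.114). Mmp8 and Mmp9, among the 7 called neutrophil markers, entered the test only through the controls, where they were high. The same holds for the dimmer Trem1 probe, and none of these is support for a fall. Over all genes tested, 2.47% were called lower. Ly6g, which had too few usable spots, was higher by 0.78 with outlier spots kept. In the knockouts the neutrophil sums came mostly from Csf3r, the brighter Trem1 probe and Ly6g. The sums thus do not show the size of the falls at the called markers. All 8 fibroblast markers were lower, 1 of them called, with sums of 41.3 to 48.4 against 26.1 to 35.0. Pdgfra, among the 8, entered the test only through the controls at its tested probe. Over all genes tested, 48.8% were lower. The part of these cell types in the falls was not tested.

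Nqo1, which reduces quinones by transferring 2 electrons at a time, read -1.99, -2.10 and -2.35 in controls and -2.78, -2.53 and -2.39 in knockouts. Every knockout lay below every control, but control replicate 3 and knockout replicate 3 nearly met. The change of -0.42 (SE 0.18, 95% interval -0.84 to 0.01) did not pass (limma, adjusted p = 0.194).

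The differences between the groups were above 0 for the members of the thioredoxin system, and none of their probes passed. Srxn1, sulfiredoxin, which repairs overoxidized peroxiredoxins, read 2.15, 1.75 and 1.67 in controls and 2.22, 2.35 and 2.37 in knockouts, with outlier spots on control replicates 1 and 3 and knockout replicate 1. The groups did not overlap but came within 0.1 of each other; with these spots kept the change was 0.46 (SE 0.18, limma adjusted p = 0.159). Txnrd1, the selenoenzyme that recharges thioredoxin, read 1.51, 1.68 and 1.63 at its brighter probe (A_51_P320614) in controls and 1.94, 1.88 and 2.04 in knockouts, where all but knockout replicate 3 were outlier spots. Kept, they gave a change of 0.34 (SE 0.14, adjusted p = 0.185) without overlap. The dimmer probe (A_55_P2740574) read -0.92, -0.84 and -0.61 against -0.61, -0.59 and -0.34, a change of 0.28 (SE 0.17, adjusted p = 0.328) in the same direction. Txn1, thioredoxin itself, differed by 0.49 with 2 usable control spots (SE 0.22, adjusted p = 0.220).

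Gpx2, the epithelial glutathione peroxidase, had the largest positive difference of the tested members, with controls that were split. The controls read 1.33, 0.88 and 2.64 and the knockouts 3.05 (an outlier spot), 2.95 and 2.97. Control replicate 3 thus lay close to the knockouts, whereas the other controls were far lower, and the knockouts were tightly grouped. The change was 1.35 (SE 0.52, 95% interval 0.05 to 2.65), or 2.55-fold higher, and did not pass (limma, adjusted p = 0.173); it was 1.86 without control replicate 3 and 0.98 without control replicate 2, and passed in neither (adjusted p = 0.0738 and 0.360). Epithelial markers moved with it: 11 of 11 tested were higher in the knockout and 0 of them called. Of the 11, 3 had an unadjusted p under 0.05 in limma, where 26.8% of all probes had one. The summed level of the 13 was 84.5, 26.9 and 61.4 in control replicates 1, 2 and 3 and 96.6 to 128 in knockouts. The lowest Gpx2 value and the lowest epithelial sum were both those of control replicate 2, but control replicate 3, with the highest Gpx2 of the controls, did not have the highest epithelial sum. Krt8 (0.68, adjusted p = 0.373) and Lgals4 (0.56, adjusted p = 0.303) were the brightest of those tested, and the part of the epithelium in the Gpx2 difference was not tested. Gpx1, the peroxidase found in most cells, differed by 0.38 (SE 0.22, adjusted p = 0.304), and by 0.19 without knockout replicate 1.

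The metallothioneins were the members nearest to equal, beside Gclm. Mt1 read 2.73, 2.69 and 2.81 in controls and 2.79, 2.48 and 2.72 in knockouts, a change of -0.07 (SE 0.15, 95% interval -0.44 to 0.29, limma adjusted p = 0.788). Mt2 read 3.21, 2.92 and 2.99 in controls and 2.95, 2.80 and 2.91 in knockouts, a change of -0.16 (SE 0.15, 95% interval -0.52 to 0.21, adjusted p = 0.546), or -0.07 without control replicate 1. The groups overlapped for both, and the sign for Mt1 turned to 0.02 without knockout replicate 2. Before scaling, the processed signals of Mt2 were 52135 to 58689 in controls and 38000 to 43289 in knockouts and those of Mt1 42231 to 45752 and 32548 to 38150, without overlap; the whole knockout arrays were dimmer, and the groups overlapped on the scale relative to the 75th percentile. Mt3, the metallothionein best known from brain, read -2.17, -2.51 and -2.02 against -2.84, -2.65 and -2.57, lower on every knockout array but not called (-0.45, SE 0.18, adjusted p = 0.178). Mt4, that of stratified epithelium, was well above background on 2 of the 6 arrays and was not tested.

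**Figure D2:**
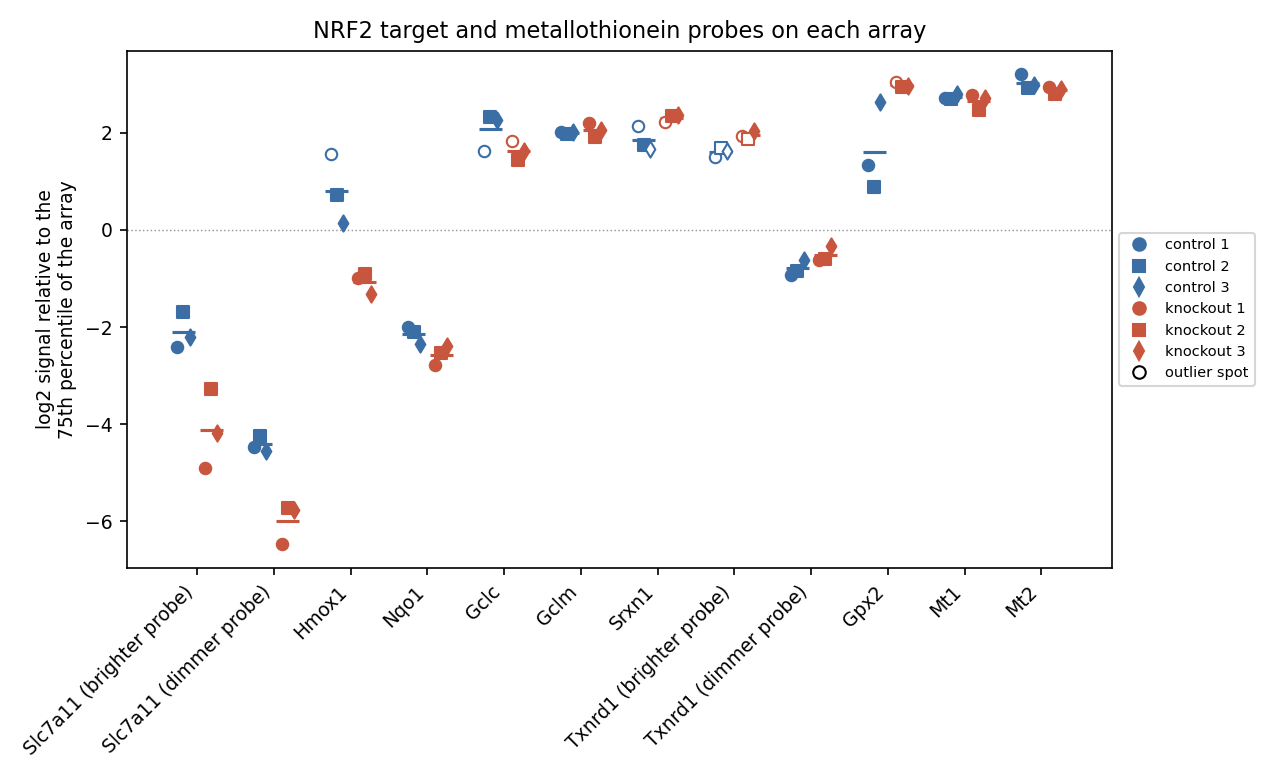
Log2 signal of the 12 member probes on each of the 6 arrays, relative to the 75th percentile of the array; marker shape gives the replicate, open symbols are outlier spots, and short lines are the means of the 3 arrays with outlier spots kept. Slc7a11 and Hmox1 are separated between the groups, the controls of Gpx2 are split between 0.88 and 2.64, and the points of Gclm, Mt1 and Mt2 overlap.

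**Figure D3:**
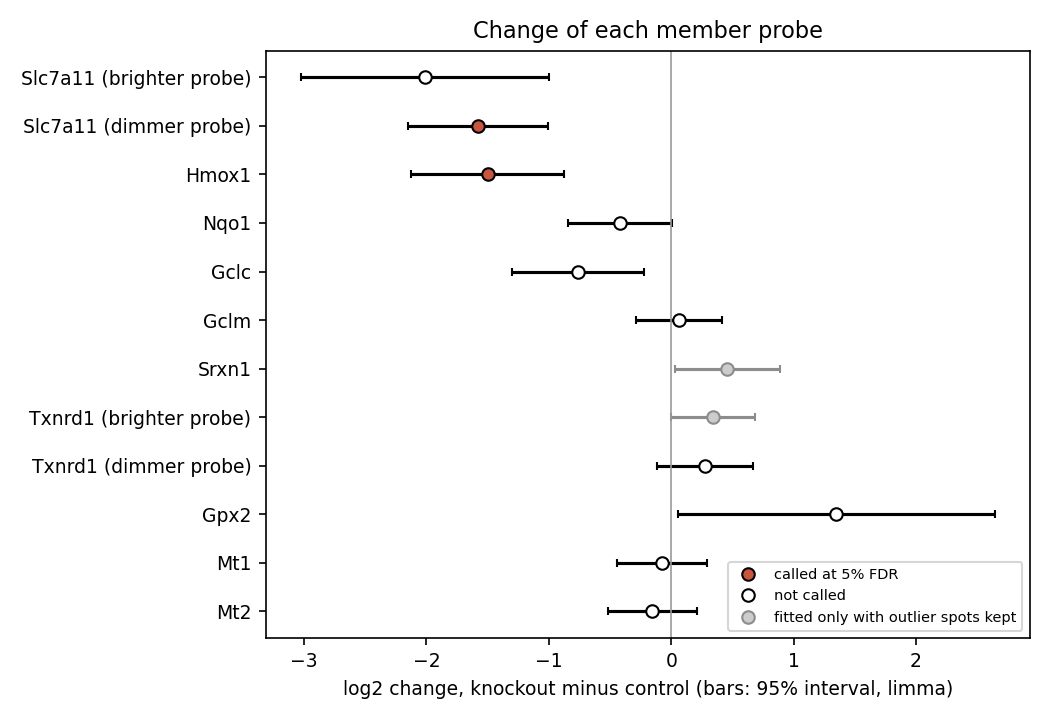
Log2 change (knockout minus control) of each member probe with its 95% interval from limma; filled red points were called at a 5% false discovery rate, and grey points were fitted only with outlier spots kept. The intervals of both Slc7a11 probes and of Hmox1 lie below 0, from -3.03 to -0.87 in all. That of Gclc, not called, also lies below 0 (-1.30 to -0.22). Those of Gpx2 (0.05 to 2.65) and Srxn1 (outlier spots kept, 0.03 to 0.89), not called, lie above 0. Those of Gclm, Mt1, Mt2, Nqo1 and both Txnrd1 probes span 0.

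**Figure D4:**
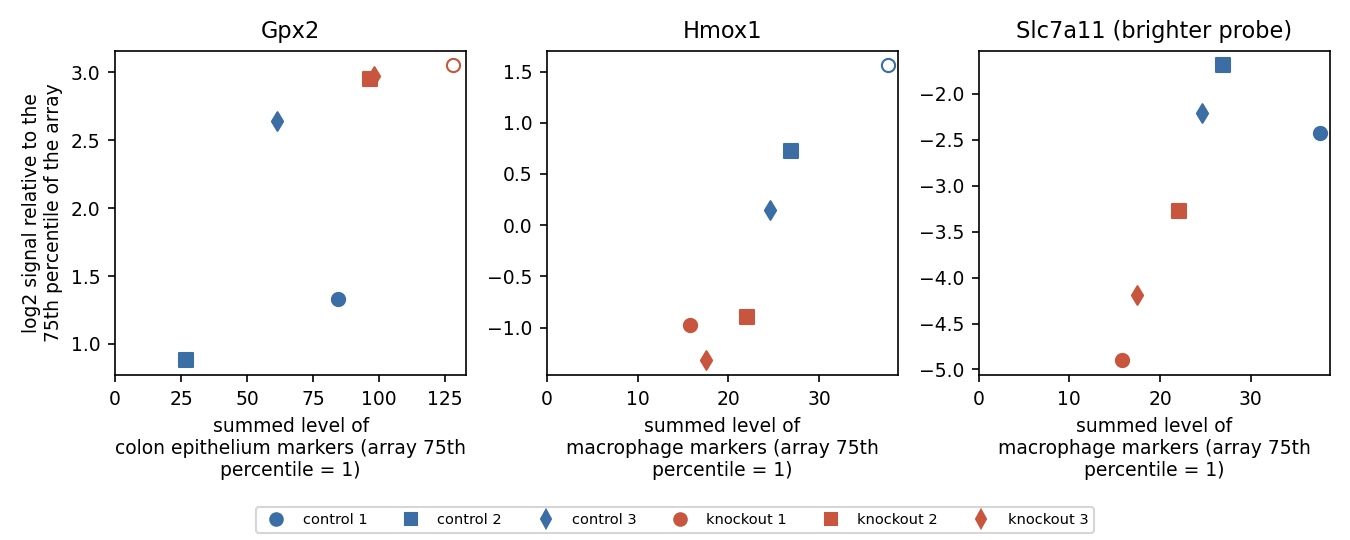
Log2 signal of Gpx2, Hmox1 and the brighter Slc7a11 probe (y axes) against the summed level of marker genes on the same array (x axes, in multiples of the 75th percentile), with outlier spots open. Epithelial sums run from 26.9 to 128 and macrophage sums from 15.8 to 37.6, and the knockouts lie at the upper end of the first and the lower end of the second.

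Few of the genes around the members passed the test. The 6 lists of other genes of these pathways held 100 different genes, some in several lists, of which 83 were tested. Of these 3 were called, or 3.61%, beside 3.82% of all genes tested. An unadjusted p under 0.05 in limma was reached by 28.9% of the 83, beside 26.8% of all probes tested, and the counts by list below are parts of that share. Among 28 other NRF2 targets tested, 21 were higher and 7 lower, with a median change of 0.30, and 0 were called in limma. Over all genes tested, 48.8% were lower. Abcc2 (1.56) and Gsta2 (2.91), among the 21, entered the test only through the knockouts, where they were high, and are no support. Of the 28, 4 had an unadjusted p under 0.05 in limma, all higher. Osgin1, a growth inhibitor induced by oxidants (1.30, adjusted p = 0.0535), Gss, glutathione synthetase (1.096, adjusted p = 0.0644), and Cbr1, a carbonyl reductase (1.07, adjusted p = 0.0721), were the nearest to the threshold and were picked after their values were seen. The 8 regulators tested had a median of 0.11, with 0 calls and 2 unadjusted p under 0.05, both lower. Nfe2l2, which encodes NRF2, had too few usable spots at its brighter probe (A_51_P411271), which read 1.94, 2.01 and 2.10 in controls and 1.88, 1.72 and 2.05 in knockouts with outlier spots kept; its dimmer probe differed by 0.44 (SE 0.30, adjusted p = 0.386), by 0.77 without control replicate 1 and by 0.24 without control replicate 3. Keap1 differed by 0.29 (SE 0.20, adjusted p = 0.380) and Bach1 by 0.36 (SE 0.22, adjusted p = 0.340), and the groups overlapped for all 3 genes. Keap1 differed by 0.12 without knockout replicate 1 and Bach1 by 0.58 without knockout replicate 2.

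Zinc handling gave calls in opposite directions beside the overlapping Mt1 and Mt2. Slc39a14, the importer ZIP14 that takes up zinc and non-haem iron, read 1.12, 1.00 and 0.92 in controls and -0.82, -0.49 and -0.65 in knockouts, a change of -1.66 (SE 0.16, limma adjusted p = 0.0161). Slc39a5, the importer ZIP5 of the basolateral membrane of gut epithelium, read -3.84, -4.32 and -4.14 against -0.65 (an outlier spot), -2.70 and -2.03 and rose by 1.73 (SE 0.28, adjusted p = 0.0413). Each group was tight for Slc39a14, whereas the knockouts of Slc39a5 were widely spread, and with that spot kept its change was 2.30 and its call was lost (adjusted p = 0.0507). The calls of both were lost without control replicate 2 (0.0572 and 0.113) or 3 (0.0523 and 0.110), that of Slc39a14 also without knockout replicate 3 (0.0562) and that of Slc39a5 without knockout replicate 1 (0.0610) and without the filter on dim probes (0.0638). Mtf1, the zinc-sensing activator of metallothioneins, was higher on every knockout array at its 3 probes; the probe A_52_P236072 read -0.27, -0.71 and -0.89 against 0.60 (an outlier spot), 0.34 and 0.80. It did not pass (1.19, SE 0.27, adjusted p = 0.0667; 0.0393 with outlier spots kept), nor did A_66_P122382 (0.52, adjusted p = 0.132). The list as a whole had a median of 0.02 over 12 genes.

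In the list of peroxidases, thioredoxins and other antioxidant enzymes, 16 genes were tested with a median of 0.15, and 1 was called. Sod3, the superoxide dismutase secreted into the matrix, read 2.18, 2.32 and 2.42 in controls and 0.35, 1.03 and 1.18 in knockouts, so that it fell by 1.46 on the log2 scale (SE 0.24, limma adjusted p = 0.0375) without overlap. Its call was kept among the fits with an array left out only without control replicate 1 (adjusted p = 0.0445); the others gave 0.0505 to 0.108, and the fit without the filter on dim probes 0.0567. The 13 haem and iron genes tested had a median of -0.07 and 0 calls. An unadjusted p under 0.05 was reached by 2 of them, both lower, where 26.8% of all probes reached it. The 13 genes of the ATF4 and amino acid response, whose transcription factor ATF4 binds elements of the kind found before Slc7a11, had a median of 0.05, a range from -1.06 to 2.18 and 0 calls in limma; 3 had an unadjusted p under 0.05 and were higher, and 4 were lower.

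**Figure D5:**
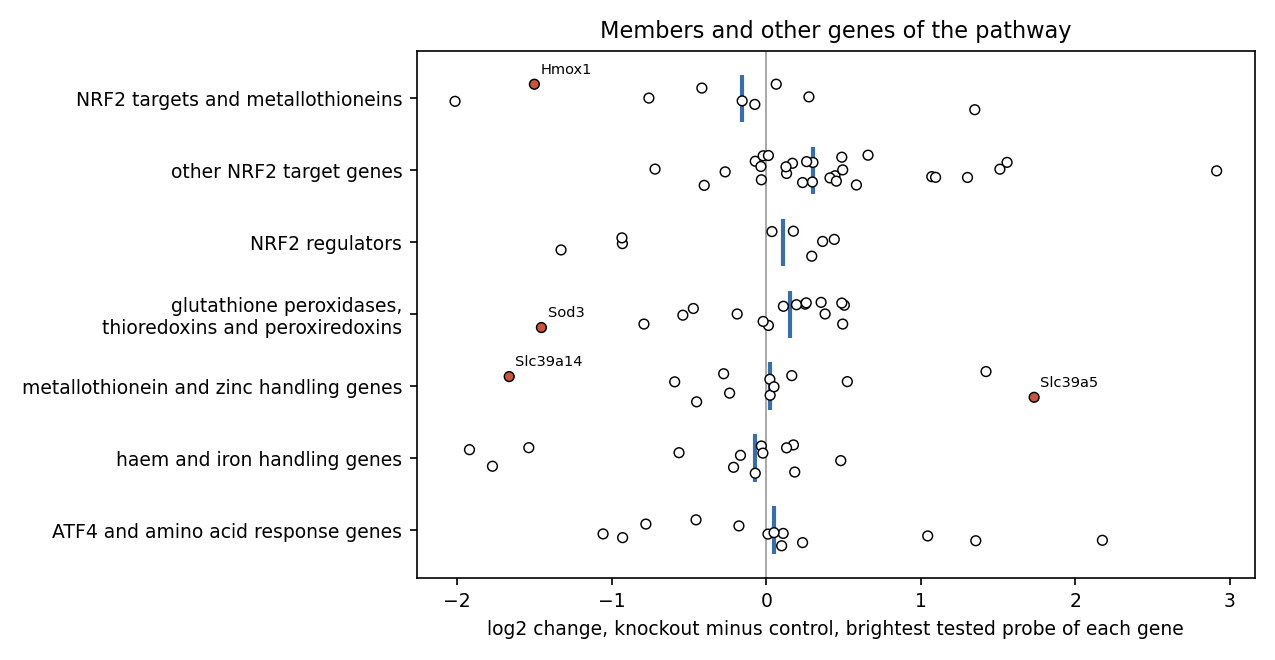
Log2 change (knockout minus control) of the brightest tested probe of each gene in the member list and in 6 lists of other pathway genes, with vertical bars at the medians and red points for genes called at a 5% false discovery rate in limma. The named red points are Hmox1, Sod3, Slc39a14 and Slc39a5, and the medians run from -0.16 for the members to 0.30 for the other NRF2 targets.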

How the data were processed

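The members and all gene lists were chosen with earlier results of these data known. The deposited scanner files hold spot intensity values on a linear scale, which the authors extracted from scans of array design 074809 (Feature Extraction version 11.5.1.1, per the file headers); the submitters' processing notes name version 10.7, and the labels name Cy3, whereas each file holds the red channel. The processed signal (its further processing is not given in the sources used here) of 59305 non-control spots was converted to log2, each array's 75th percentile was subtracted, outlier spots were made missing and spots of a probe were averaged, giving 56605 probes. A probe was tested if well above background on all 3 arrays of a group and usable on 2 arrays in each group. Genotype was the only term in limma 3.58.1 (R 4.3.3; lmFit, eBayes, two-sided, Benjamini-Hochberg over 35351 probes at 5%); the procedure was tested on simulated data. The labels give each sample its own name but do not say that the samples came from separate animals; p-values measure the spread between these samples, which may be technical. The small number of arrays sets the precision, and for 3 against 3 an exact permutation test cannot go below 0.1. Probes were named through RefSeq accessions in GRCm38.p6; the files use mm9, so no probe coordinates are given. Named were the 10 members, called genes of the 6 lists, 10 fixed regulators and partners, the brightest markers and Islr; exceptions are marked. The deposited value table holds the same intensity values (log2 correlation of at least 0.999999; column medians 489 to 825) with no scaling between arrays found and was an alternative. The other alternatives were normexp (offset 50, on median signals), quantile normalization, median centring, outlier spots kept, no filter on dim probes, array weights, gene means over probes and each array left out.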

Additional observations from a re-analysis of the deposited data

How the results depend on the processing

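The number of called probes moved from 1403 (39.1% higher) to 2545 under normexp (50.6% higher), 2185 under quantile normalization, 2249 under median centring, 484 without the filter on dim probes, 7320 with array weights (49.7% higher), and 40 to 2114 with an array left out. Members called by their brightest probe went from 1 to 2 under normexp, quantile normalization, median centring, outlier spots kept and the value table, to 3 with array weights, to 0 without the filter and with the mean over a gene's probes, and 0 to 1 with an array left out. Called pathway genes went from 3 to 6 under normexp, 20 with array weights, 1 without the filter and 0 to 5 with an array left out. Every fit that could be made kept the direction of Hmox1, both Slc7a11 probes, Nqo1, Gclc, Gpx2, Mt2 and the tested Txnrd1 probe. Gclc passed with array weights (adjusted p = 0.0333). With an array left out, Mt1 ran from -0.1377 to 0.0175 (above 0 without knockout replicate 2) and Gclm from -0.0081 to 0.1386 (below 0 without knockout replicate 1). The sign of Gclm also turned under quantile normalization (-0.10), as did that of Slc3a2 under quantile normalization (-0.0063), and that of Hmox2 under median centring (0.0072), with the value table (0.0027) and without control replicate 1 or knockout replicate 2 or 3 (0.0018 to 0.0406; -0.1089 to 0.0406 over all arrays left out). The change of Islr was -2.58 to -2.34 with an array left out, and lost its call without knockout replicate 3 (adjusted p = 0.0580). Except where an alternative tests fewer arrays or other probes, the cause was not tested. The bound of Slc7a11 was 0.99 to 1.15 on the log2 scale with an array left out. No paired analysis was possible because the labels give no replicate numbers that the groups share. Low signal over background limits the dimmer Slc7a11 probe.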

Other observations

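Some genes of the haem and amino acid lists, picked after their values were seen, moved with Hmox1 or around cysteine and were not called in limma. Spic, a transcription factor of haem-handling macrophages, read 0.04, -1.46 and -2.01 in control replicates 1, 2 and 3 and -3.14, -2.10 and -2.80 in knockouts. Slc11a1, an iron transporter of phagosomes, read 0.27, -0.66 and -1.43 against -3.22, -2.17 and -2.20 (-1.92, adjusted p = 0.0707). For both genes, as for Hmox1, control replicate 1 was the highest and control replicate 3 the lowest of the controls. Hp, haptoglobin, was also lower in every knockout, with 2.5, 2.1 and 2.22 against -1.57, 1.96 and 1.11 (-1.77, limma adjusted p = 0.231). Slc40a1 and Cd163 did not fall in this way. Slc40a1 was higher in every knockout, with 0.99, -0.65 and 0.06 against 2.3, 1.22 and 1.39. It was not among the genes tested, and its change was 1.504 with outlier spots kept. Cd163 overlapped between the groups (-0.56, limma adjusted p = 0.451). Cth, which makes cysteine from cystathionine, was higher in every knockout, with -2.01, -3.46 and -2.84 against 0.37, -1.35 and -0.80 (2.18, adjusted p = 0.0660), while the cystine importer Slc7a11 was lower. Trib3, a target of ATF4, was lower in every knockout (-1.06, adjusted p = 0.0619).

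Gsta2, a glutathione transferase, was picked after its values were seen. It read -0.07 and -2.46 in control replicates 1 and 3 and 0.59, -1.55 and 0.17 in knockouts, and was not well above background in control replicate 2, the array with the lowest Gpx2 and the lowest epithelial marker sum. It was not called (limma, adjusted p = 0.307), and it entered the test only through the knockouts, where it was high.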
